A study of Homo sapiens with 8 samples.

Results

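The genes described here are the human metalloproteases of the ADAM, ADAMTS, MMP and tolloid families, the ADAMTS-like proteins and the metalloprotease inhibitors, measured by RNA sequencing in aggregates of neuroblastoma cells. Members were defined by their symbols: every protein-coding row of the count table whose symbol was ADAM, ADAMTS, ADAMTSL or MMP followed by a number, with TIMP1 to TIMP4, BMP1, TLL1, TLL2 and RECK. This gave 74 members of the 60676 rows in the table, 19837 of which were protein-coding. They comprised 20 ADAM, 19 ADAMTS, 5 ADAMTSL and 22 MMP genes, 3 tolloid proteases, and 5 inhibitors (the TIMP genes and RECK). The cells were IGR-N91, a human cell line from a stage 4 neuroblastoma, grown as aggregates in hanging drops. Aggregates were kept in control medium or in medium conditioned by sympathetic ganglia of E8 chick embryos (E8-cSGcm, written E8-cGScm in some labels), dorsal root ganglia of E8 chick embryos (E8-cDRGcm) or sympathetic ganglia of E15.5 mouse embryos (E15.5-mSGcm, also E15.5-mGScm). Each of these 4 groups had 2 libraries, described as duplicates. The study's methods state in general that distinct samples were measured, but the sources used here do not say whether the duplicates were separate cultures, so the p-values measure the spread between libraries, which may be technical. The study exposed tumor cells to these media to ask how signals from embryonic ganglia alter their transcriptome. Exposure is given as 20 h in the treatment protocol and as 24 h in the series description.

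Metalloproteases cut proteins at a catalytic zinc ion. Membrane-anchored ADAM proteases shed receptors, growth factors and adhesion molecules from the cell surface, while secreted ADAMTS proteases cut proteoglycans such as versican or trim procollagens, and MMPs degrade collagens, laminins and other matrix proteins. Tolloid proteases remove the C-terminal propeptide of procollagens and cleave the BMP antagonist chordin. ADAMTSL proteins resemble ADAMTS proteases without their catalytic domain and bind to matrix microfibrils. TIMP proteins block the active site of MMPs, and RECK is an inhibitor attached to the cell membrane. Most of these proteases are made as inactive precursors, so a transcript level is not an enzyme activity.

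Libraries held 7930765 to 15060744 counts, and the shallowest were the pair from E15.5-mSGcm. The limit of detection, taken as 3 reads, lay between 0.199 and 0.378 CPM of the library total, a bound on counting error alone since reads and not molecules were counted. CPM elsewhere are scaled to library size by TMM. All 7 noradrenergic neuroblastoma markers were detected, with a summed level of 1331 to 1349.7 CPM in control, 1095 to 1180.3 in E8-cSGcm, 1080.4 to 1100.4 in E8-cDRGcm and 992 to 1028 in E15.5-mSGcm; 2 of them fell in E8-cSGcm, 4 in E8-cDRGcm and 2 in E15.5-mSGcm. No read fell on SOX10 and FABP7, which mark Schwann cells and other glia, on the endothelial gene CDH5 or on the sensory neuron gene SCN10A. The summed level per library was at most 4.10 CPM over the glial markers, of which ERBB3 rose in E8-cDRGcm and E15.5-mSGcm, 1.60 CPM over 3 endothelial markers, 1.41 CPM over 4 immune markers and 8.46 CPM over 4 sensory neuron markers. Of 6 fibroblast markers, COL1A2, DCN, LUM and PDGFRA rose and COL1A1 fell in E15.5-mSGcm, and the level summed over all 6 was 157 to 174 CPM in control, 212 to 222 in E8-cSGcm, 193 to 199.7 in E8-cDRGcm and 161 to 174 in E15.5-mSGcm. DCN also fell in E8-cDRGcm. The part of these marker genes in the results below was not tested.

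Reads were found for 56 of the 74 members, while 18 had none in any library. The genes without a read at this depth were ADAM2, ADAM18, ADAM30, ADAMTS12, ADAMTS13, ADAMTS18, ADAMTSL3 and 11 of the 22 MMP genes, among them the collagenases MMP1 and MMP8, the stromelysins MMP3, MMP10 and MMP11 and the matrilysins MMP7 and MMP26. A further 19 members had reads but too few for the test, with at most 11 in a library. Among these, the gelatinase MMP9 had 0 and 0 reads in control, 3 and 2 in E8-cSGcm, 2 and 1 in E8-cDRGcm and 1 and 6 in E15.5-mSGcm. TIMP4 had a single read in all 8 libraries together, and the tolloid protease TLL2 had 2 to 9 reads per library. ADAM20, with the most reads of them in a single library, had 2 and 2 reads in control, 6 and 8 in E8-cSGcm, 11 and 10 in E8-cDRGcm and 2 and 2 in E15.5-mSGcm. The 37 members that passed the filter on low counts were 8 ADAM, 14 ADAMTS, 2 ADAMTSL and 7 MMP genes, BMP1, TLL1, TIMP1, TIMP2, TIMP3 and RECK.

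Levels of different genes were compared as RPKM, that is CPM divided by the kilobases of exon. The gelatinase MMP2 was highest, at a mean of 71.2 RPKM over the 8 libraries. The inhibitor TIMP1 followed at 35.8 RPKM, then ADAMTS19 at 35.5, ADAM12 at 32.8, ADAMTS9 at 25.6 and the membrane-type protease MMP16 at 25.5. Among ADAM genes, ADAM22, which lacks protease activity and acts at synapses, stood at 12.1 RPKM, the general sheddase ADAM10 at 8.38 and the TNF-converting enzyme ADAM17 at 2.14. In the other families, MMP24 reached 13.9 RPKM, ADAMTS3 11.9, TIMP2 5.99, BMP1 3.56, RECK 1.77 and TLL1 1.57. TIMP3, at 0.428 RPKM, was the lowest tested inhibitor, and MMP14, the best known membrane-type MMP, was at 0.331 RPKM.

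**Figure D1:**
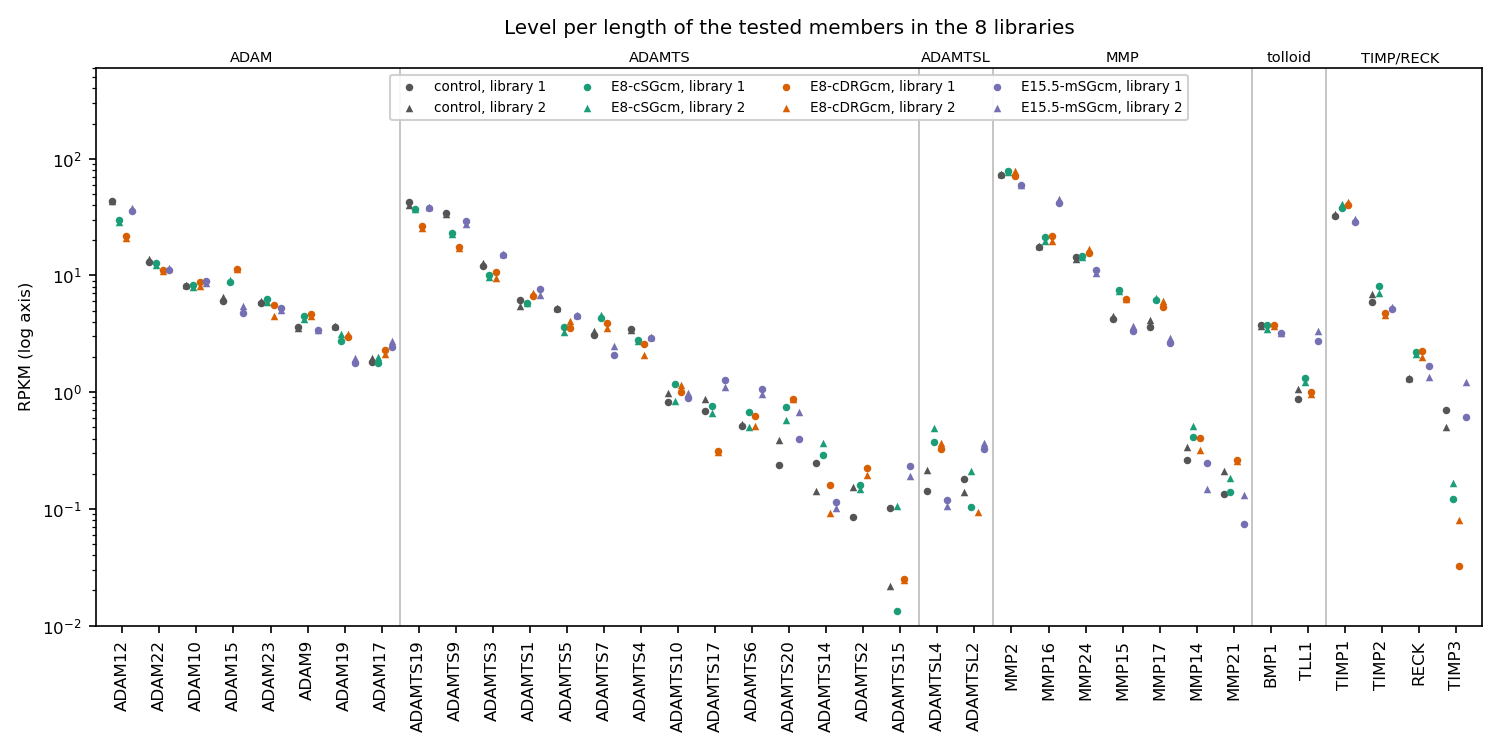
RPKM on a log axis for the 37 tested members, grouped by family, with 1 point per library (circles, library 1; triangles, library 2). MMP2 lies highest in all groups, MMP16 and TLL1 lie highest in E15.5-mSGcm, and TIMP3 lies lowest in E8-cDRGcm. Libraries without a read are not drawn (both E15.5-mSGcm libraries for ADAMTS2 and 1 E8-cDRGcm library for ADAMTSL2).

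The question asked of each member was whether its level in a conditioned medium differed from that in control medium. In E8-cSGcm, 5 of the 37 tested members rose and 2 fell against control, where a call required an edgeR adjusted p under 0.05 together with at least a 1.5-fold change. Over all 16680 genes tested, 8.59% were called, with 4.73% higher and 3.86% lower. In E8-cDRGcm, 4 members rose and 6 fell, where 20.7% of all genes were called (9.81% higher and 10.9% lower). In E15.5-mSGcm, 5 met this criterion as higher, among them ADAMTS15, and 2 fell, where 13.9% of all genes were called (6.65% higher and 7.27% lower). Members were called in 18.9% of cases in E8-cSGcm, 27.0% in E8-cDRGcm and 18.9% in E15.5-mSGcm. Their median log2 fold change was 0.065, 0.057 and -0.20, against 0.010, 0.0055 and -0.015 over all genes. These shares are a description of the members that passed the filter on low counts. ADAMTS15 passed it only through the E15.5-mSGcm libraries and MMP21 only through those of E8-cDRGcm, so their values are given as a description and their calls are no support. The 3 comparisons share the same control libraries. In all, 19 members were called in at least 1 medium, 4 in 2 or more and 1, ADAMTS20, in all 3, while 18 were called in none. Of all genes tested, 30.7% were called in at least 1 medium, 10.5% in 2 or more and 2.05% in all 3, against 51.4%, 10.8% and 2.70% of the members. With the adjusted p alone, 12 members were higher and 8 lower in E8-cSGcm, where 16.1% of all genes were higher and 15.2% lower. In E8-cDRGcm these were 12 and 13, against 24.8% and 24.7%, and in E15.5-mSGcm 9 and 12, against 17.8% and 20.0%.

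**Figure D2:**
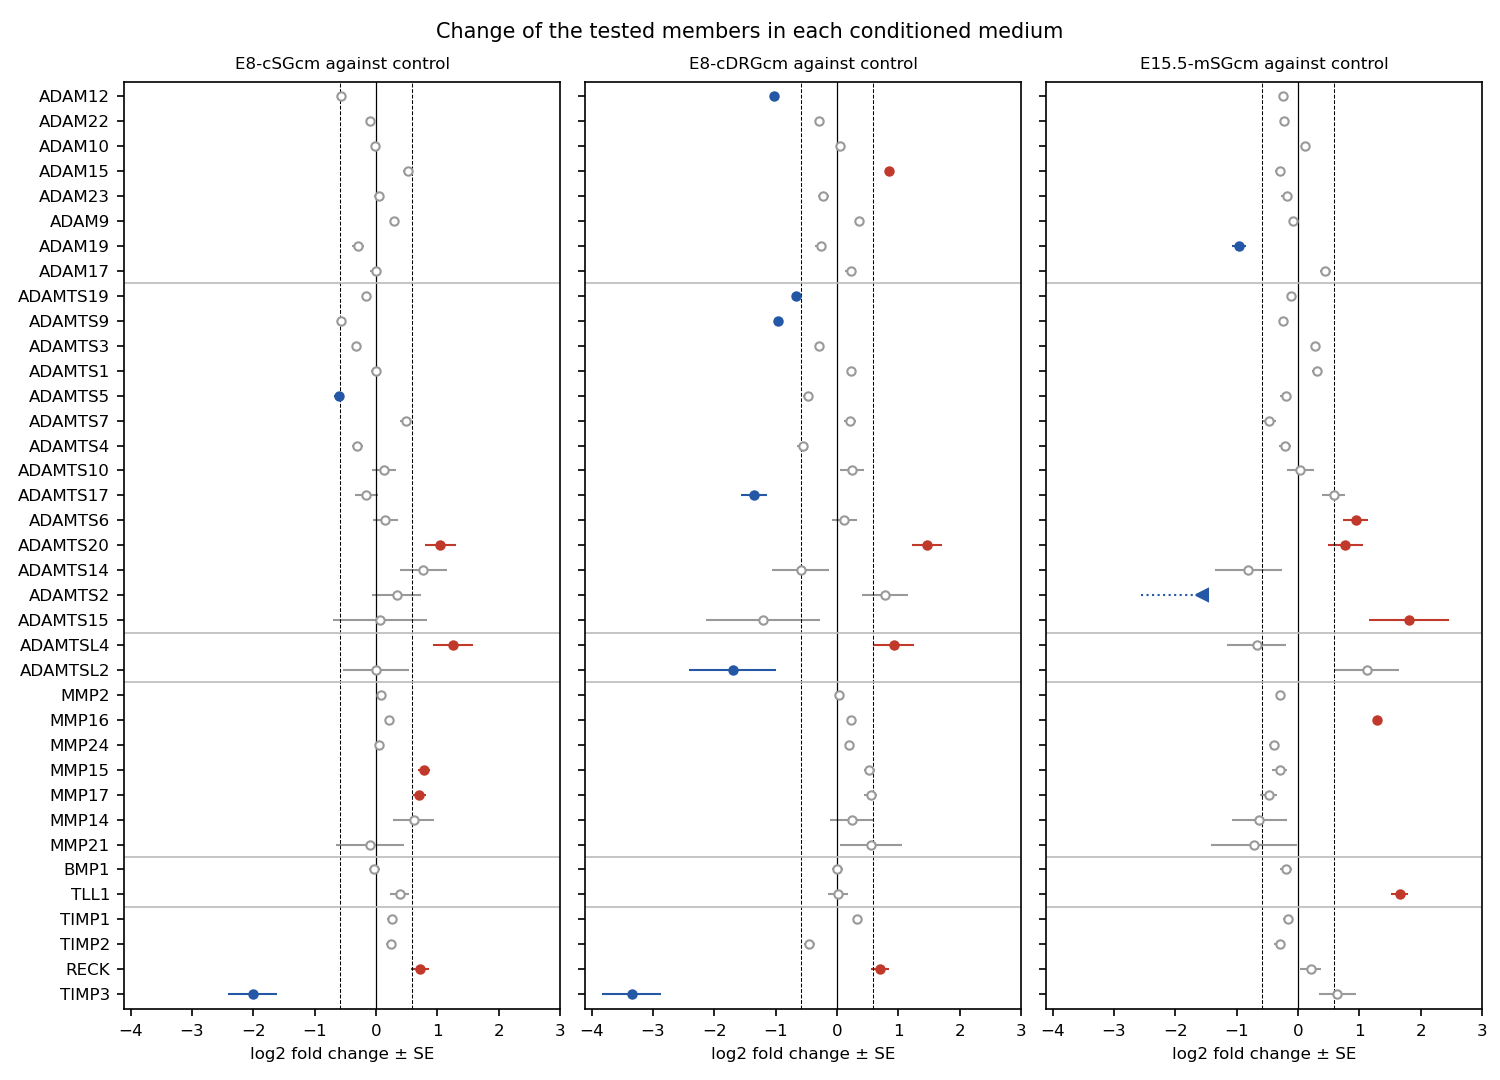
Log2 fold change against control (± SE) of the 37 tested members in each conditioned medium, from 1 edgeR fit of the 8 libraries. Red and blue points were called higher or lower, open points were not called, and dashed lines mark a fold change of 1.5. TIMP3 lies farthest left in both chick media, at -2.01 and -3.35. The triangle for ADAMTS2 in E15.5-mSGcm is the lower bound of its decrease, since it had no read there.

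The inhibitors did not move together. TIMP3 (ENSG00000100234), which binds to the extracellular matrix and inhibits ADAM17 and several ADAMTS proteases as well as MMPs, had 42 and 35 reads in control, 7 and 11 in E8-cSGcm, 2 and 5 in E8-cDRGcm and 22 and 49 in E15.5-mSGcm. Scaled to library size this was 3.21 and 2.30 CPM in control, 0.560 and 0.769 in E8-cSGcm, 0.149 and 0.366 in E8-cDRGcm and 2.81 and 5.59 in E15.5-mSGcm. Both chick media lay below control without overlap, while the E15.5-mSGcm libraries lay far apart and overlapped with control. TIMP3 fell in E8-cSGcm (log2 fold change -2.01 ± 0.40 (SE), edgeR adjusted p = 0.000146) and in E8-cDRGcm (log2 fold change -3.35 ± 0.49 (SE), edgeR adjusted p = 3.9e-07). In E15.5-mSGcm its log2 fold change was 0.64 ± 0.30 and was not called (edgeR adjusted p = 0.096). In bulk samples such as these, fewer expressing cells and less RNA per cell cannot be told apart.

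RECK (ENSG00000122707) went the other way in the chick media. It stood at 7.18 and 7.35 CPM in control, 12.2 and 11.7 in E8-cSGcm, 12.6 and 11.1 in E8-cDRGcm and 9.33 and 7.52 in E15.5-mSGcm. Its libraries in both chick media lay above all others. RECK rose in E8-cSGcm (log2 fold change 0.72 ± 0.15 (SE), edgeR adjusted p = 0.000202) and by nearly the same amount in E8-cDRGcm (log2 fold change 0.71 ± 0.15 (SE), edgeR adjusted p = 0.000108). TIMP1, the most abundant inhibitor, ranged only from 41.0 to 62.1 CPM over the 8 libraries, with log2 fold changes of 0.26, 0.33 and -0.16 in E8-cSGcm, E8-cDRGcm and E15.5-mSGcm, below the fold change criterion. TIMP2, which also takes part in the activation of pro-MMP2 at the cell surface, had 36.5 and 43.1 CPM in control, 50.4 and 44.2 in E8-cSGcm, 29.8 and 28.6 in E8-cDRGcm and 31.7 and 33.1 in E15.5-mSGcm. It was not called against control, but was lower in E8-cDRGcm than in E8-cSGcm (log2 fold change -0.69 ± 0.088 (SE), edgeR adjusted p = 1.05e-07). Exons of TIMP2 overlap those of CEP295NL on the same strand, so reads there cannot be told apart.

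The tolloid protease TLL1 (ENSG00000038295) separated the mouse medium from the rest. It had 7.10 and 8.53 CPM in control, 10.6 and 9.93 in E8-cSGcm, 8.06 and 7.82 in E8-cDRGcm and 22.2 and 27.2 in E15.5-mSGcm. Both E15.5-mSGcm libraries were more than 2 times as high as any other library. TLL1 rose in E15.5-mSGcm (log2 fold change 1.66 ± 0.14 (SE), edgeR adjusted p = 2.41e-12), a 3.16-fold change. In E8-cSGcm its log2 fold change of 0.39 ± 0.15 stayed below the fold change criterion, and in E8-cDRGcm it was 0.015 ± 0.16. BMP1, the founding tolloid protease and the main procollagen C-proteinase, was at 26.3 and 25.8 CPM in control and between 22.6 and 26.7 CPM in every library, with log2 fold changes from -0.20 to 0.0036, none of them called.

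Among the MMPs, the calls against control were of membrane-type members and not of the secreted gelatinase MMP2. Of the 7 MMPs tested, 5 were membrane-type. MMP2 had 340.0 and 347 CPM in control, 367 and 362 in E8-cSGcm, 336 and 369.9 in E8-cDRGcm and 282 and 277 in E15.5-mSGcm. The last pair lay below the other libraries, with a log2 fold change of -0.30 ± 0.051 that did not reach the fold change criterion. MMP16 (ENSG00000156103), a transmembrane protease able to activate pro-MMP2, had 209.9 and 217 CPM in control, 256 and 241 in E8-cSGcm, 262 and 240.0 in E8-cDRGcm and 500.2 and 543 in E15.5-mSGcm. Its levels in E15.5-mSGcm did not overlap with those of any other group. It rose in E15.5-mSGcm (log2 fold change 1.29 ± 0.054 (SE), edgeR adjusted p = 5.27e-21), a 2.45-fold change, while in both chick media it was slightly above control (0.22 and 0.23 on the log2 scale).

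MMP15 and MMP17 were instead highest in E8-cSGcm and lowest in E15.5-mSGcm. MMP15, a transmembrane collagenase-like protease, had 17.9 and 18.8 CPM in control, 31.9 and 31.4 in E8-cSGcm, 26.7 and 26.3 in E8-cDRGcm and 14.2 and 15.6 in E15.5-mSGcm. MMP17, which is held in the membrane by a lipid anchor, had 14.4 and 16.5 CPM in control, 24.8 and 25.8 in E8-cSGcm, 21.4 and 24.1 in E8-cDRGcm and 10.5 and 11.7 in E15.5-mSGcm. For both genes the libraries lay in the order E8-cSGcm, E8-cDRGcm, control and E15.5-mSGcm without overlap. This order holds before any correction for GC content, which is high in both (65.5% and 68.7%). After the correction given below, the log2 fold change in E15.5-mSGcm against control was -0.019 for MMP15 (edgeR adjusted p = 0.922). For MMP17 it was -0.14 (edgeR adjusted p = 0.446), and its corrected difference between E8-cDRGcm and E8-cSGcm was -0.0052. In E8-cSGcm, MMP15 rose (log2 fold change 0.78 ± 0.094 (SE), edgeR adjusted p = 2.36e-08), as did MMP17 (log2 fold change 0.70 ± 0.11 (SE), edgeR adjusted p = 1.86e-06). In E8-cDRGcm they met the adjusted p threshold without reaching 1.5-fold, at 0.53 ± 0.096 and 0.55 ± 0.11 on the log2 scale. MMP24, a neural membrane-type protease that can cut N-cadherin, was at 62.6 and 60.9 CPM in control and 48.2 and 45.5 in E15.5-mSGcm, a log2 fold change of -0.40 ± 0.075 below the fold change criterion. MMP14 was too low for a firm statement, with 6 to 34 reads per library and no call against control. MMP24 shares exon sequence with MMP24OS on the opposite strand.

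**Figure D3:**
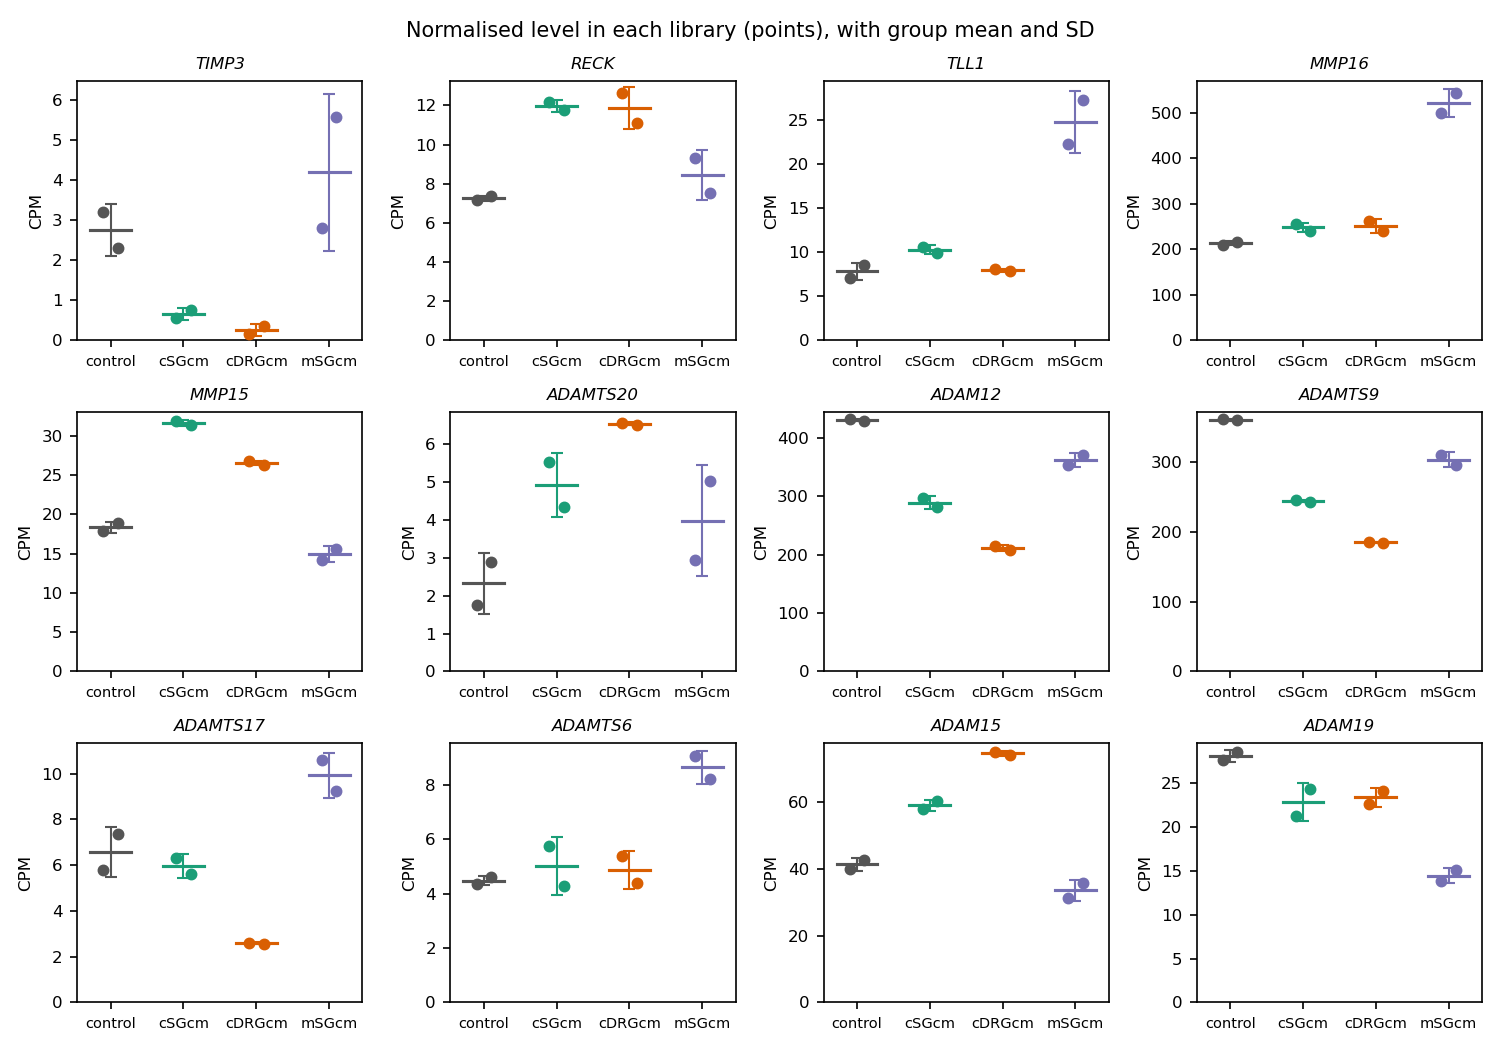
Normalised level (CPM, linear axes from 0) of 12 members in each library, with the mean and SD of the 2 libraries of each group. TIMP3 is low in both chick media, RECK is high in both, MMP16 and TLL1 are high in E15.5-mSGcm alone, and ADAM12 and ADAMTS9 step down from control to E8-cSGcm to E8-cDRGcm.

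ADAM12 (ENSG00000148848), a sheddase of EGF family ligands and the highest ADAM gene, was lowest in E8-cDRGcm. It stood at 432 and 429.7 CPM in control, 297 and 282 in E8-cSGcm, 216 and 208 in E8-cDRGcm and 354 and 371 in E15.5-mSGcm. The 4 groups did not overlap. ADAM12 fell in E8-cDRGcm (log2 fold change -1.02 ± 0.049 (SE), edgeR adjusted p = 2.07e-19). In E8-cSGcm its log2 fold change of -0.57 ± 0.048 (edgeR adjusted p = 7.29e-12) was just short of the fold change criterion, and in E15.5-mSGcm it was -0.25 ± 0.049. ADAM15, a protease with an integrin-binding disintegrin domain, had 40.0 and 42.7 CPM in control, 58.0 and 60.3 in E8-cSGcm, 75.2 and 74.2 in E8-cDRGcm and 31.5 and 35.8 in E15.5-mSGcm. It rose in E8-cDRGcm (log2 fold change 0.85 ± 0.071 (SE), edgeR adjusted p = 1.2e-12) and showed 0.51 ± 0.073 in E8-cSGcm, below the criterion. Its exons overlap those of DCST1 on the same strand.

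ADAM19, which can shed neuregulins, was lower in E15.5-mSGcm than elsewhere. It had 27.6 and 28.6 CPM in control, 21.3 and 24.3 in E8-cSGcm, 22.6 and 24.1 in E8-cDRGcm and 13.8 and 15.05 in E15.5-mSGcm. ADAM19 fell in E15.5-mSGcm (log2 fold change -0.96 ± 0.11 (SE), edgeR adjusted p = 1.4e-08), while the chick media gave -0.30 and -0.27 on the log2 scale. Exons of ADAM19 overlap those of CYFIP2 on the opposite strand, as do those of ADAM17 with IAH1, and without a stated strand setting reads there cannot be told apart. The general sheddases were not called. ADAM10 remained between 126 and 143 CPM in all libraries, and its log2 fold changes were -0.018, 0.057 and 0.11. ADAM17 was at 29.2 and 31.1 CPM in control and 38.5 and 43.6 in E15.5-mSGcm, a log2 fold change of 0.45 ± 0.093 that met the adjusted p threshold (edgeR, 0.000203) without reaching 1.5-fold. ADAM22 had 177 and 189 CPM in control and 151 and 148 in E8-cDRGcm, where its log2 fold change was -0.29 ± 0.053, also below the criterion.

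ADAMTS9, ADAMTS5 and ADAMTS20 belong to the ADAMTS proteases that cut versican and related proteoglycans, and their calls went in different directions. ADAMTS9 (ENSG00000163638) had 362 and 360.3 CPM in control, 246 and 243 in E8-cSGcm, 186 and 185 in E8-cDRGcm and 311 and 296 in E15.5-mSGcm. As for ADAM12, the 4 groups did not overlap and E8-cDRGcm was lowest. It fell in E8-cDRGcm (log2 fold change -0.96 ± 0.049 (SE), edgeR adjusted p = 9.07e-19), and in E8-cSGcm its log2 fold change of -0.56 ± 0.048 was just short of the criterion. ADAMTS5, also known as aggrecanase-2, was at 50.2 and 51.6 CPM in control, 35.5 and 32.1 in E8-cSGcm, 34.3 and 39.3 in E8-cDRGcm and 43.6 and 44.9 in E15.5-mSGcm. It was called lower in E8-cSGcm (log2 fold change -0.60 ± 0.081 (SE), edgeR adjusted p = 2.72e-07), on the edge of the fold change criterion. Without the second control library its log2 fold change was -0.58, without the second E8-cSGcm library it was -0.52, and in neither case was it called.

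ADAMTS20 (ENSG00000173157) was low in control and rose in both chick media. It had 23 and 44 reads in control, 69 and 62 in E8-cSGcm, 88 and 89 in E8-cDRGcm and 23 and 44 in E15.5-mSGcm. Control and E15.5-mSGcm had the same read numbers at different depths. Scaled, these were 1.76 and 2.89 CPM in control, 5.52 and 4.33 in E8-cSGcm, 6.57 and 6.51 in E8-cDRGcm and 2.94 and 5.02 in E15.5-mSGcm. The chick media lay clearly above control, and the lower E15.5-mSGcm library was only just above the higher control library. ADAMTS20 was called higher in E8-cSGcm (log2 fold change 1.05 ± 0.25 (SE), edgeR adjusted p = 0.00124), in E8-cDRGcm (log2 fold change 1.47 ± 0.24 (SE), edgeR adjusted p = 2.56e-06) and in E15.5-mSGcm (log2 fold change 0.77 ± 0.29 (SE), edgeR adjusted p = 0.0326). The last of these calls was lost without the first control library (log2 fold change 0.47, edgeR adjusted p = 0.289) and without the second E15.5-mSGcm library (0.31, adjusted p = 0.61).

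The other tested proteoglycan-cutting members were ADAMTS1, ADAMTS4 and ADAMTS15, while ADAMTS8 had 1 read in each control library and none elsewhere. ADAMTS1 had 45.3 and 39.6 CPM in control and 55.6 and 49.9 in E15.5-mSGcm, its largest log2 fold change (0.32 ± 0.083), below the criterion. ADAMTS4 had 35.7 and 35.2 CPM in control and 26.6 and 21.6 in E8-cDRGcm (-0.56 ± 0.092 on the log2 scale), again below it. ADAMTS15 had very few reads, 8 and 2 in control, 1 and 9 in E8-cSGcm, 2 and 2 in E8-cDRGcm and 11 and 10 in E15.5-mSGcm. In E15.5-mSGcm its log2 fold change was 1.81 ± 0.65, given as a description because only those libraries carried it past the filter. It no longer met the criterion without the second control library (1.03), the first E15.5-mSGcm library (1.65) or the second (1.95).

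Of the procollagen N-propeptidases, ADAMTS2 was not detected in the mouse medium. This protease, which trims fibrillar procollagens, had 10 and 21 reads in control, 18 and 19 in E8-cSGcm, 27 and 24 in E8-cDRGcm and none in either E15.5-mSGcm library. Against the limit of 3 reads per library, ADAMTS2 was at least 2.95-fold lower in E15.5-mSGcm than in control (edgeR adjusted p = 0.000114). ADAMTS3, the most abundant of the group, which can process the lymphangiogenic factor VEGF-C, had 83.5 and 90.1 CPM in control, 71.2 and 68.1 in E8-cSGcm, 75.3 and 66.0 in E8-cDRGcm and 105 and 106 in E15.5-mSGcm. Its log2 fold changes of -0.32, -0.30 and 0.28 all passed the adjusted p and none the fold change criterion. ADAMTS14 had 5 to 29 reads per library and was not called against control.

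Among the remaining ADAMTS proteases, ADAMTS19 had 228 and 217 CPM in control, 199 and 198 in E8-cSGcm, 143 and 136 in E8-cDRGcm and 204 and 207 in E15.5-mSGcm. It fell in E8-cDRGcm (log2 fold change -0.67 ± 0.051 (SE), edgeR adjusted p = 1.1e-13), whose libraries lay apart from the other 6. Its paralog ADAMTS17, linked to fibrillin microfibrils, had 5.80 and 7.35 CPM in control, 6.32 and 5.59 in E8-cSGcm, 2.61 and 2.56 in E8-cDRGcm and 10.6 and 9.23 in E15.5-mSGcm. ADAMTS17 fell in E8-cDRGcm (log2 fold change -1.35 ± 0.21 (SE), edgeR adjusted p = 1.6e-06), while in E15.5-mSGcm it lay above control by 0.58 ± 0.18 on the log2 scale, just short of the criterion. ADAMTS6 was at 4.35 and 4.60 CPM in control, 5.76 and 4.26 in E8-cSGcm, 5.38 and 4.39 in E8-cDRGcm and 9.08 and 8.21 in E15.5-mSGcm. It rose in E15.5-mSGcm (log2 fold change 0.94 ± 0.20 (SE), edgeR adjusted p = 0.000277). ADAMTS7, which cuts cartilage oligomeric matrix protein, had 23.7 and 25.7 CPM in control, 33.8 and 35.4 in E8-cSGcm, 30.2 and 27.3 in E8-cDRGcm and 16.2 and 19.4 in E15.5-mSGcm. It was not called against control, and since near-identical pseudogene copies exist its reads are uncertain. ADAM9, ADAM23, ADAMTS10 and MMP21, the tested members not described otherwise, were not called in any comparison, with log2 fold changes against control from -0.71 to 0.56.

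Both tested ADAMTS-like genes were low. ADAMTSL4, which binds fibrillin microfibrils, had 12 and 21 reads in control, 30 and 45 in E8-cSGcm, 28 and 32 in E8-cDRGcm and 6 and 6 in E15.5-mSGcm. It was called higher in E8-cSGcm (log2 fold change 1.26 ± 0.32 (SE), edgeR adjusted p = 0.00254) and in E8-cDRGcm (log2 fold change 0.93 ± 0.34 (SE), edgeR adjusted p = 0.0211). The call in E8-cSGcm was lost without its second library (1.04, adjusted p = 0.0613). The call in E8-cDRGcm was lost without the first control library (0.68, adjusted p = 0.171) or the second E8-cDRGcm library (0.85, adjusted p = 0.108). Its exons overlap those of MCL1 on the opposite strand, and the strand setting of the counting is not stated. ADAMTSL2 had 11 and 10 reads in control, 6 and 14 in E8-cSGcm, 0 and 6 in E8-cDRGcm and 12 and 15 in E15.5-mSGcm. It was called lower in E8-cDRGcm (log2 fold change -1.70 ± 0.71 (SE), edgeR adjusted p = 0.0455), a call that was lost without either control library, the first E8-cDRGcm library or either E15.5-mSGcm library, at log2 fold changes from -1.87 to -0.75 and adjusted p from 0.056 to 0.435.

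Sequence upstream of 4 members was read to show the promoters of genes that moved in opposite directions: TIMP3, which fell in both chick media, ADAM12, which fell in E8-cDRGcm, RECK, which rose in both chick media, and TLL1, which rose in E15.5-mSGcm. RefSeq promoters on build GRCh38.p14 were matched by symbol for 46 of the 74 members and 26 of the 37 tested ones. The windows hold the 250 bases before the annotated start and lie at chr22:32801455-32801704, plus strand (TIMP3), chr10:126388478-126388727, minus strand (ADAM12), chr9:36036663-36036912, plus strand (RECK) and chr4:165872987-165873236, plus strand (TLL1). They are written 5′ to 3′ on the strand of the gene, in lower case, with every match to 3 motifs in capitals. The first motif was a GC box, GGGCGG. The second was a TATA element with the letters TATAAA. The last was an AP-1 element, TGA and TCA separated by any base. Each was searched on both strands, and no 2 matches shown overlap.
TIMP3: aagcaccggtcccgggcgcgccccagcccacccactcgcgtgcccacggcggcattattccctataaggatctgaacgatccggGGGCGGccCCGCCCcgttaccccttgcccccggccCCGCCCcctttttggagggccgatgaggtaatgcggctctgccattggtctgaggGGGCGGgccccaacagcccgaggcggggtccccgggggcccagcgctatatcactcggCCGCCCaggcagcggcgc
ADAM12: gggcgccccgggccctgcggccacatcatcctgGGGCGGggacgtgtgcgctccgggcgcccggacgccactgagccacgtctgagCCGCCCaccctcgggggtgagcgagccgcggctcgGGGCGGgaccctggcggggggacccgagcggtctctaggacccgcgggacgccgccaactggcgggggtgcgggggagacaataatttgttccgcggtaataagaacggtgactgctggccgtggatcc
RECK: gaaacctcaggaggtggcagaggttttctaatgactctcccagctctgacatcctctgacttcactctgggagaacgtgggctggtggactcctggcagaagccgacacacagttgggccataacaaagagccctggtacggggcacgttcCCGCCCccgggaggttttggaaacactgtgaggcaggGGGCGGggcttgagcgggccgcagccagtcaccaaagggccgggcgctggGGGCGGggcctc
TLL1: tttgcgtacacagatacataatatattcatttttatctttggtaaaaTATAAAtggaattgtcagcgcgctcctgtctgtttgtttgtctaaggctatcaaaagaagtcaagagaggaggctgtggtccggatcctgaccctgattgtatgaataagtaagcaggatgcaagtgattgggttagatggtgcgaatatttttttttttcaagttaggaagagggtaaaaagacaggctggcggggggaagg
In these windows TIMP3 holds 5 GC boxes, ADAM12 and RECK 3 each, and TLL1 none but 1 TATA element on the same strand as the gene. A GC box was found in 22 of the 26 promoters of tested members (84.6%), in 67.1% of 10812 promoters of all genes tested and in 42.3% of all 27305 promoters. A TATA element was found in 4 of the 26 (15.4%), in 5.35% of genes tested and in 11.1% of all promoters. The AP-1 element, a site through which several MMP genes are known to be induced, was found in none of the 26. It was found in 3.56% of genes tested and in 6.60% of all promoters. Of all 46 matched members, 4 held it (8.70%), and none of these 4 passed the filter on low counts. For the 26, this says only that these letters are not in this window. Such matches are a description and not binding sites.

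The conditioned media were also compared with each other, which tests a difference between media directly. Between E8-cDRGcm and E8-cSGcm, 3 of the 37 members were called, all lower in E8-cDRGcm (8.11%), against 7.49% of all genes (2.62% higher and 4.87% lower). Between E15.5-mSGcm and E8-cSGcm, 7 were higher and 9 lower (43.2% in all), against 22.3% of all genes (10.2% higher and 12.1% lower), and between E15.5-mSGcm and E8-cDRGcm 9 were higher and 9 lower (48.6% in all), against 26.2% of all genes (13.1% in each direction). Both counts of higher members include ADAMTS15. With the adjusted p alone, 14 members differed between the chick media and 28 between E15.5-mSGcm and E8-cSGcm, against 30.2% and 49.8% of all genes. MMP16, TLL1, TIMP3 and ADAMTS17 were higher in E15.5-mSGcm than in either chick medium, while MMP17, ADAMTSL4 and ADAMTS2 were lower in both comparisons. MMP16 lay above E8-cSGcm by 1.07 ± 0.053 and above E8-cDRGcm by 1.06 ± 0.053 on the log2 scale (edgeR adjusted p = 6.15e-19 and 4.03e-19). TIMP3 differed by 2.65 ± 0.40 on the log2 scale from E8-cSGcm (edgeR adjusted p = 7.14e-07) and by 3.99 ± 0.48 from E8-cDRGcm (adjusted p = 5.58e-09), with fewer reads in each chick library than in either mouse medium library. For ADAM12 and ADAMTS9, the difference between E8-cDRGcm and E8-cSGcm was -0.45 ± 0.050 and -0.40 ± 0.049, which met the adjusted p threshold (edgeR, 5.55e-09 and 5.99e-08) without reaching 1.5-fold.

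Genes that act on or with these proteases were taken from 4 lists of 29 genes in all, chosen with earlier results of these data known. Of 23 tested, 4 rose and 1 fell in E8-cSGcm, 4 rose and 2 fell in E8-cDRGcm, and 4 met the criterion as higher and 1 fell in E15.5-mSGcm. Over all genes the called shares in these comparisons were 8.59%, 20.7% and 13.9%. Among convertases and plasminogen activation, 2 of 8 rose and 1 fell in each chick medium, and PLAT rose in E15.5-mSGcm. PLAU is counted among the 4 higher there as a description, since only those libraries carried it past the filter. SERPINE2, an inhibitor of thrombin and plasminogen activators, stood at 3.89 and 4.33 CPM in control, 17.3 and 19.1 in E8-cSGcm, 44.2 and 44.6 in E8-cDRGcm and 5.11 and 4.90 in E15.5-mSGcm. It rose in E8-cSGcm (log2 fold change 2.14 ± 0.14 (SE), edgeR adjusted p = 6.59e-15) and in E8-cDRGcm (log2 fold change 3.42 ± 0.12 (SE), edgeR adjusted p = 1.64e-23). The convertase PCSK6, which activates precursor proteins, fell from 47.6 and 45.2 CPM in control to 27.5 and 25.4 in E8-cSGcm (-0.81 ± 0.084, edgeR adjusted p = 1.07e-09) and 19.6 and 18.1 in E8-cDRGcm (-1.30 ± 0.089, adjusted p = 4.97e-15). FURIN, the convertase that activates membrane-type MMPs and many ADAMs, rose in E8-cDRGcm, from 27.6 and 27.4 to 52.4 and 56.7 CPM (0.99 ± 0.082, adjusted p = 1.02e-12).

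Scaled to library size, both plasminogen activators lay higher in the mouse medium than in control. The reads of PLAT were similar, at 372 and 395 in control and 367 and 415 in E15.5-mSGcm. PLAU, the urokinase gene, had 3 and 1 reads in control, 4 and 2 in E8-cSGcm, 4 and 1 in E8-cDRGcm and 39 and 31 in E15.5-mSGcm. Only the last pair carried PLAU past the filter on low counts, so its reads are given as a description. PLAT, the tissue-type activator, had 28.4 and 25.9 CPM in control, 40.6 and 43.98 in E8-cSGcm, 20.5 and 22.5 in E8-cDRGcm and 46.9 and 47.3 in E15.5-mSGcm, and rose in E8-cSGcm (0.64 ± 0.085) and E15.5-mSGcm (0.80 ± 0.090). TFPI2, a serine protease inhibitor of the matrix, rose in all 3 media. Its reads numbered 3 and 9 in control, 13 and 18 in E8-cSGcm, 22 and 29 in E8-cDRGcm and 122 and 184 in E15.5-mSGcm, with log2 fold changes of 1.43 ± 0.49, 2.13 ± 0.44 and 5.41 ± 0.29.

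Of the 9 genes that guide ADAM10 and ADAM17 to the cell surface, 1 rose in E8-cSGcm, 1 rose and 1 fell in E8-cDRGcm, and 1 fell in E15.5-mSGcm. The first was RHBDF1, the iRhom1 gene, at 1.76 and 2.101 CPM in control, 3.04 and 3.92 in E8-cSGcm, 5.67 and 4.90 in E8-cDRGcm and 1.15 and 1.48 in E15.5-mSGcm. It was called in both chick media, at 0.85 ± 0.26 and 1.44 ± 0.25 on the log2 scale. The tetraspanin genes TSPAN10 and TSPAN33 fell in E8-cDRGcm (-1.37 ± 0.44) and in E15.5-mSGcm (-1.25 ± 0.24), respectively. Of the proteoglycans that ADAMTS proteases cut, versican (VCAN) was at 1532 and 1578 CPM in control, 1209 and 1010.4 in E8-cSGcm, 1123 and 1104 in E8-cDRGcm and 1467 and 1532 in E15.5-mSGcm, with log2 fold changes of -0.49 ± 0.058 and -0.48 ± 0.058 in the chick media that stayed below the fold change criterion. Brevican (BCAN) was called higher in E15.5-mSGcm (1.16 ± 0.30, edgeR adjusted p = 0.00236). It had 24 and 23 reads in control and 27 and 35 in these shallower libraries. The partner genes were not checked with other processing or with a correction for GC content.

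**Figure D4:**
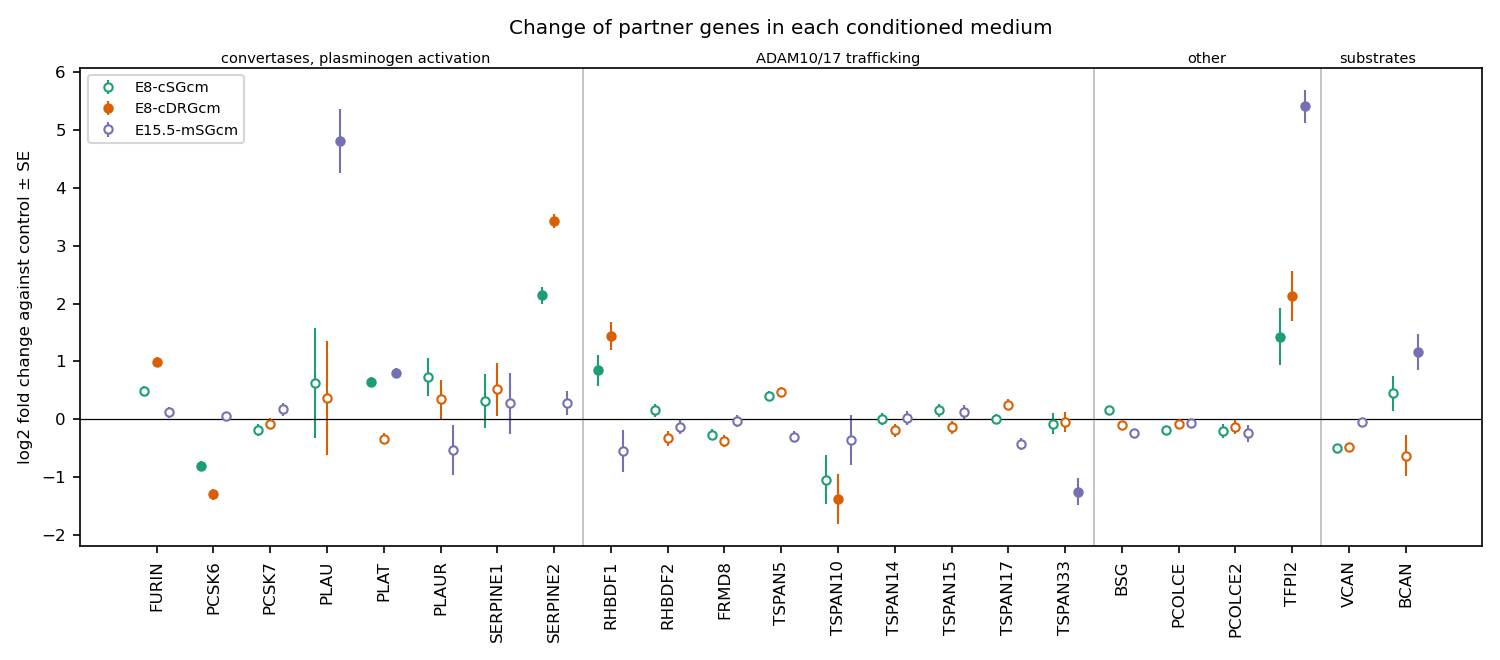
Log2 fold change against control (± SE) of the 23 tested partner genes in the 3 conditioned media, grouped by list. Filled points were called. SERPINE2 is high in both chick media, PLAU in E15.5-mSGcm and TFPI2 in all 3. The point of PLAU is a description, since only the E15.5-mSGcm libraries carried it past the filter on low counts.

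The mouse medium libraries differed from the others in base composition as well as depth. Their genes of highest GC content, the upper of 5 equal bins, lay at a median of -0.164 and -0.149 on the log2 scale from the mean of all libraries, and those of the lowest bin at 0.082 and 0.072, while the control libraries lay between -0.017 and 0.040 in each bin. The E8-cSGcm libraries lay at 0.095 and 0.109 in the highest bin. Across the 37 members, which are not independent replicates and share libraries, the log2 fold change in E15.5-mSGcm correlated with GC content with r of -0.24, and across 16574 genes with r of -0.19. With each library corrected for GC content and length, a step chosen after the data were seen, r over the members was -0.11. Both values of r over the members include ADAMTS2 at its fitted log2 fold changes of -6.76 and -6.75. Those rest on the absence of reads in E15.5-mSGcm, and r without ADAMTS2 was not computed. MMP16 and TLL1, both of low GC content, kept a log2 fold change of 1.07 and 1.53 in E15.5-mSGcm after this correction (edgeR adjusted p = 1.45e-24 and 3.92e-13). ADAM19 was at -0.91 and ADAMTS6 at 0.82, both still called. The call of ADAMTS20 in E15.5-mSGcm was lost (0.67, adjusted p = 0.0591), and ADAMTS17 (0.68) and ADAMTSL2 (1.40) were called higher there. In E8-cSGcm, MMP17 (0.56) and ADAMTS5 (-0.57) moved below the fold change criterion. Between media, so did the differences in E15.5-mSGcm of ADAM15 (-0.49) and ADAMTS3 (0.48) from E8-cSGcm, and those of MMP15 (-0.55), ADAMTS7 (-0.42) and MMP24 (-0.42) from E8-cDRGcm.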

How the data were processed

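RNA (50 ng per library) was sequenced as 75 bp single reads after SMARTer Stranded Total RNA-Seq library preparation. Per the labels, the submitters' processing notes name bcl2fastq 2.17.1.14, cutadapt 1.9.1, TopHat2 2.1.0 and HTSeq 0.11.3, and the authors deposited raw counts per gene. The paper names hg19 and the notes GRCh38. Annotation release and strand setting are not given in the sources used here, so reads from overlapping genes cannot be told apart. Besides the overlaps named above, exons of ADAM9, ADAM10, ADAMTS3, ADAMTS9, ADAMTS17, ADAMTS19, MMP16 and MMP21 overlap other genes on the opposite strand. Exons of MMP2 and BMP1 overlap other genes on the same strand. Counts were fitted once over all 8 libraries with edgeR 4.0.16 (TMM, filterByExpr, robust quasi-likelihood test, Benjamini-Hochberg over 16680 genes, R 4.3.3), without covariates, and checked on simulated counts. RPKM used union exon lengths of GENCODE on GRCh37. Alternatives were DESeq2 1.42.0, RLE factors, other filters, thinning, a replicate block and leaving out libraries; GC correction was added after the data were seen. Replicates differed beyond sampling noise (chi-square per gene 1.78 to 3.64). Members and lists were chosen with earlier results of these data known. Members named in the text were all inhibitors and tolloids, every called member, the 3 highest per family, and ADAM10, ADAM17, MMP2, MMP9 and MMP14. Outside this rule, ADAM20, ADAM9, ADAM23, ADAMTS1, ADAMTS4, ADAMTS8, ADAMTS10, MMP21 and the genes without reads were named after their values were seen. PECAM1 was not matched, and 1 marker gene is not reported here.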

Additional observations from a re-analysis of the deposited data

Results flagged for a closer look

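A member was listed here when its difference between 2 conditioned media passed the edgeR test (adjusted p under 0.05 together with at least a 1.5-fold change), so that the response to those media differed. There were 37 such differences, of which 25 held in every alternative that tested them. No group had enough libraries for a test of single outlying libraries. Both differences of ADAMTS15 are a description, since it passed the filter on low counts only through the E15.5-mSGcm libraries, where it is high.

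Between E8-cDRGcm and E8-cSGcm, TIMP2 differed by -0.69 on the log2 scale, ADAMTS17 by -1.20 and ADAMTS14 by -1.36, each lower in E8-cDRGcm. The call of ADAMTS14 was lost without the second E8-cSGcm library (-1.18) or the second E8-cDRGcm library (-1.02).

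Against E8-cSGcm, the members higher in E15.5-mSGcm were TIMP3 by 2.65, ADAMTS15 by 1.74, TLL1 by 1.27, MMP16 by 1.07, ADAMTS6 by 0.79, ADAMTS17 by 0.74 and ADAMTS3 by 0.60 on the log2 scale. Those with a negative difference were ADAMTSL4 at -1.93, ADAMTS14 at -1.58, MMP14 at -1.25, MMP17 at -1.18, MMP15 at -1.08, ADAMTS7 at -0.95, ADAM15 at -0.81 and ADAM19 at -0.66. ADAMTS2 was at least 3.82-fold lower. Single libraries or the processing decided several of these calls. DESeq2 did not call ADAMTS14 (adjusted p = 0.0967), MMP14 (adjusted p = 0.119) or ADAMTS15 (adjusted p = 0.188). Thinning lost the call of MMP14 (-1.02), and a filter at 1 count in total lost that of ADAMTS3 (0.54). Without the second E8-cSGcm library, the calls of ADAM19 (-0.57), ADAMTS14 (-1.40), ADAMTS3 (0.56), ADAMTS6 (0.57) and MMP14 (-1.09) were lost. Without the second E15.5-mSGcm library, those of ADAMTS14 (-1.51), ADAMTS15 (1.89), ADAMTS3 (0.58) and MMP14 (-0.91) were lost. ADAMTS15 was also not called without the first E8-cSGcm library (0.99) or the first E15.5-mSGcm library (1.59).

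Against E8-cDRGcm, the members higher in E15.5-mSGcm were TIMP3 by 3.99, ADAMTS15 by 3.02, ADAMTSL2 by 2.82, ADAMTS17 by 1.93, TLL1 by 1.64, MMP16 by 1.06, ADAMTS6 by 0.82, ADAM12 by 0.78 and ADAMTS9 by 0.71 on the log2 scale. Those with a negative difference were ADAMTSL4 at -1.60, ADAM15 at -1.15, MMP17 at -1.03, MMP15 at -0.83, ADAMTS20 at -0.70, ADAM19 at -0.69, ADAMTS7 at -0.68 and MMP24 at -0.59. ADAMTS2 was at least 5.20-fold lower. The call of ADAMTS20 was lost without the first E8-cDRGcm library (-0.68) or the first E15.5-mSGcm library (-0.39), and that of ADAMTS7 without the latter (-0.58). DESeq2 (adjusted p = 0.126) and thinning (-0.60) also lost the call of ADAMTS20. The call of MMP24 was lost without the second E8-cDRGcm library (-0.54) or the second E15.5-mSGcm library (-0.55). It was also lost with RLE factors (-0.58), with at least 10 counts in every library (-0.58) and with only the libraries compared (-0.58).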

How the results depend on the processing

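Of the 24 calls of members against control, 17 held in every alternative that tested them, and no called value changed sign. With the adjusted p alone, 12 members were higher and 8 lower in E8-cSGcm, against 16.1% and 15.2% of all genes. In E8-cDRGcm these were 12 and 13, against 24.8% and 24.7%, and in E15.5-mSGcm 9 and 12, against 17.8% and 20%. By the same criterion 14 differed between E8-cDRGcm and E8-cSGcm and 28 between E15.5-mSGcm and E8-cSGcm, against 30.2% and 49.8%. With at least 10 counts in every library, which tests fewer genes, 1 was lower in E8-cSGcm, 1 in E15.5-mSGcm, and 10 differed between E15.5-mSGcm and E8-cSGcm. With libraries thinned to the smallest total, 1 was lower in E8-cSGcm and 3 were higher in E15.5-mSGcm. After correction for GC content and length, with or without the replicate number as a block, 1 was lower in E8-cSGcm. With DESeq2, 3 were higher in E15.5-mSGcm, and with a fit of only the libraries compared 7 were higher and 1 was lower there. DESeq2 gave ADAMTS15 in E15.5-mSGcm no adjusted p and did not call ADAMTS20 there, ADAMTSL2 in E8-cDRGcm or ADAMTSL4 in either chick medium. Leaving out each library in turn gave 4 to 5 higher and 1 to 3 lower members in E8-cSGcm, 4 to 6 and 5 to 6 in E8-cDRGcm, 4 to 6 and 2 to 3 in E15.5-mSGcm, 2 to 4 between the chick media, 12 to 16 between E15.5-mSGcm and E8-cSGcm and 17 to 19 between E15.5-mSGcm and E8-cDRGcm; the lone library left in a group is assumed to vary like the other groups. Same-numbered libraries did not deviate together (r from -0.044 to 0.042 in 6 pairs of groups). With 2 libraries per group, this cannot tell whether same-numbered libraries were prepared together. With the replicate number as a block, 5 members were higher and 2 lower in E8-cSGcm, 4 and 6 in E8-cDRGcm and 5 and 2 in E15.5-mSGcm, with 3, 16 and 18 calls between media, and no named call changed. ADAMTSL4, ADAMTSL2, ADAMTS15 and MMP14 had few reads in every library, and differences in such genes were hard to detect at this depth.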
